A study of Rattus norvegicus with 100 samples.

Results

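Fatty acid desaturases and elongases are the enzymes of the endoplasmic reticulum that put double bonds into fatty acids and lengthen their chains. The 6 genes described are the desaturases Scd, Fads1 and Fads2 and the elongases Elovl6, Elovl2 and Elovl5, chosen by name. They are 6 of 13439 genes that had a probe set with a single symbol on the array, and all 6 passed the filter on low values, as did 8843 genes in all. Where a gene had several probe sets, the one of highest mean intensity was read. The probe sets are 1370355_PM_at for Scd, 1367857_PM_at for Fads1, 1368453_PM_at for Fads2, 1388108_PM_at for Elovl6, 1391534_PM_at for Elovl2 and 1387630_PM_at for Elovl5. Primary hepatocytes from 4 rats (Rs627, Rs628, Rs631 and Rs632) were cultured on collagen IV with a Geltrex overlay and exposed to GW7647, a synthetic agonist of the nuclear receptor PPARα, at 0.001, 0.01, 0.1, 1 or 10 µM, or to none (0 µM). RNA was taken after 2, 6, 12, 24 and 72 h and hybridised to 100 Affymetrix arrays in 30 groups of 2 to 4 arrays. The labels give neither the strain, sex and age of the rats nor whether the 0 µM cultures received solvent. The cultures given 1 µM had 3, 4, 4, 4 and 4 arrays by time, and those given none had 3, 4, 3, 3 and 4. Values are deposited log2 intensities, so that a difference of 1 is a doubling.

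Saturated acids made by fatty acid synthase leave that enzyme mainly as palmitate. Elovl6 lengthens palmitate to stearate, and Scd, stearoyl-CoA desaturase, turns both into monounsaturated acids, chiefly oleate. Fads2 and Fads1 act in turn on the essential fatty acids of the diet to give arachidonate and eicosapentaenoate, with Elovl5 lengthening the intermediates between the Fads2 and Fads1 steps and Elovl2 carrying the products on towards docosahexaenoate. In liver these genes are known targets of the sterol regulatory element binding protein SREBP-1c, and several of them, among them Scd and Fads2 in rodents, are also known to rise with PPARα activators.

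The sequences before the transcription starts of the desaturases are given because each of these genes was called higher at 1 µM from 12 h on. Of the 6 genes, 5 had a RefSeq promoter entry in build GRCr8, with 6 starts in all since Elovl2 has more than one. The 250 bases before each start were read 5′ to 3′ on the gene's own strand. Fads1 (chr1:216252442-216252691, plus strand) and Fads2 (chr1:216172034-216172283, minus strand) are transcribed away from each other, with 80158 bases between these windows, and Scd lies further along the chromosome (chr1:253231732-253231981, minus strand). Capitals mark a CCAAT box (CCAAT) or a GC box (GGGCGG) on either strand.
Fads1: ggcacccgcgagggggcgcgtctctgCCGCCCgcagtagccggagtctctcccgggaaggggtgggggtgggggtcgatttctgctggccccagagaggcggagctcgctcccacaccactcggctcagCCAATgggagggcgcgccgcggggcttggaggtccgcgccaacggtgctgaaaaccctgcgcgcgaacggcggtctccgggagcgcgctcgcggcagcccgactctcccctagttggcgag
Fads2: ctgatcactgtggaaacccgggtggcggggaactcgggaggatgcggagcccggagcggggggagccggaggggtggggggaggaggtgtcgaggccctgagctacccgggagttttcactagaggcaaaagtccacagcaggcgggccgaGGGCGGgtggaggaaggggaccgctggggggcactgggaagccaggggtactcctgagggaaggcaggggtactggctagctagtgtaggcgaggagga
Scd: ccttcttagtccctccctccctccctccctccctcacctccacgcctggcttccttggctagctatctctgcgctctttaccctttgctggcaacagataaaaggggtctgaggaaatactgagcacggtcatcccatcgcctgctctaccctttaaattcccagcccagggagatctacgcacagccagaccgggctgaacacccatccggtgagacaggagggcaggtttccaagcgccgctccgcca
The Fads1 window held a CCAAT box that begins 121 bases before the start and a GC box that begins 224 bases before it. The Fads2 window held a GC box that begins 99 bases before its start, and the Scd window held neither motif. The Elovl5 window (chr8:87670914-87671163, plus strand) held CCAAT boxes that begin 122 and 68 bases before the start. Both Elovl2 windows (chr17:23750100-23750349 and chr17:23750333-23750582, plus strand) held GC boxes. In all, 4 of the 6 windows held a GC box and 2 a CCAAT box. None of the 6 windows held the letters of a direct repeat of the nuclear receptor half-site (AGGNCA, any single base, and AGGNCA again), a single half-site (AGGTCA, which a direct repeat may contain) or a sterol regulatory element (TCACNCCAC), on either strand. Among all 33469 promoter windows of this length, 0.368% held the direct repeat, 14.1% the half-site, 0.974% the sterol regulatory element, 34.0% the CCAAT box and 30.5% the GC box. These are matches of letters in a short window and are given as a description.

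Before the results, some arrays need naming. Deviations from the group means showed that 98 of 100 arrays resembled the other arrays of their own rat most. The exceptions were both 0 µM arrays at 12 h labelled Rs627 and Rs628, each of which resembled the other rat. Results at 12 h are therefore given with and without them. Both belong to the same group, so an exchange of their labels would leave the main model unchanged. It would change results under a model with the rat as a block and in fits that leave out Rs627 or Rs628. Differences within a rat at 12 h and values by rat would also change. Leaving out both arrays keeps a single 0 µM array at 12 h, so a call lost that way cannot be told from the loss of arrays. For 12 h without them, values or changes are therefore given but no adjusted p, whether or not a call was kept. The overall signal of an array, taken as the 75th percentile of its probe sets, ranged from 6.42 to 7.27 and was under 6.6 in 5 arrays, of which 2 (Rs631 and Rs632) were at 1 µM and 24 h. Array titles carry a code of a letter and a number, read here as a plate position although the titles do not name it. Of 87 codes 10 recurred, on 23 arrays in all, called those at repeated plate positions. All 5 low-signal arrays were among these 23, so leaving out either set removes them. At 24 h the signal was 6.69 ± 0.26 at 1 µM (SD, n = 4) against 6.99 ± 0.11 at 0 µM (n = 3), and the median change of all genes was -0.23 as deposited and -0.08 after quantile normalization. There 624 genes were called higher and 1995 lower as deposited, and 907 and 1391 after quantile normalization. All 7 hepatocyte markers with a probe set exceeded the floor of 5 in at least 1 array at each time at 1 µM, and at 0 µM 6 of them did from 6 h on, with Cyp2e1 at the floor. Averaged over the times at 1 µM, 1 of the 7 rose (Cyp2e1, by 1.34 on the log2 scale), 2 fell (Serpina1 by 0.32 and Ttr by 0.11) and 4 did not pass, albumin (0.01 ± 0.02, adjusted p = 0.705) among them, while 4 fell under a model with the rat as a block.

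In outline, Elovl6 was the first of the 6 genes to be called and Fads2 had the largest change by 72 h. Scd, Fads1 and Fads2 were called from 12 h at 1 µM, Elovl2 only in the average over the times, and Elovl5 in none of these comparisons. A gene is called when its adjusted p, from a linear model of all 100 arrays with Benjamini-Hochberg adjustment over the 8843 genes, is under 0.05. At 1 µM against 0 µM, the number of the 6 genes called was 0, 1, 4, 4 and 4 at 2, 6, 12, 24 and 72 h, all of them higher. Over all genes tested, the shares called higher were 0.351%, 1.73%, 3.96%, 7.06% and 11.3% in the same order of times. The median change of the 6 genes was 0.00, 0.24, 0.94, 1.20 and 0.94 at these times, against 0.01, -0.06, -0.02, -0.23 and -0.06 over all genes tested. At 2 h, where none was called, 1 of the 6 (Elovl6) and 197 of all genes had an unadjusted p under 0.05. When arrays were paired by animal, by adding the rat to the model (the rat as a block), the numbers called were 1, 2, 5, 4 and 5.

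**Figure D1:**
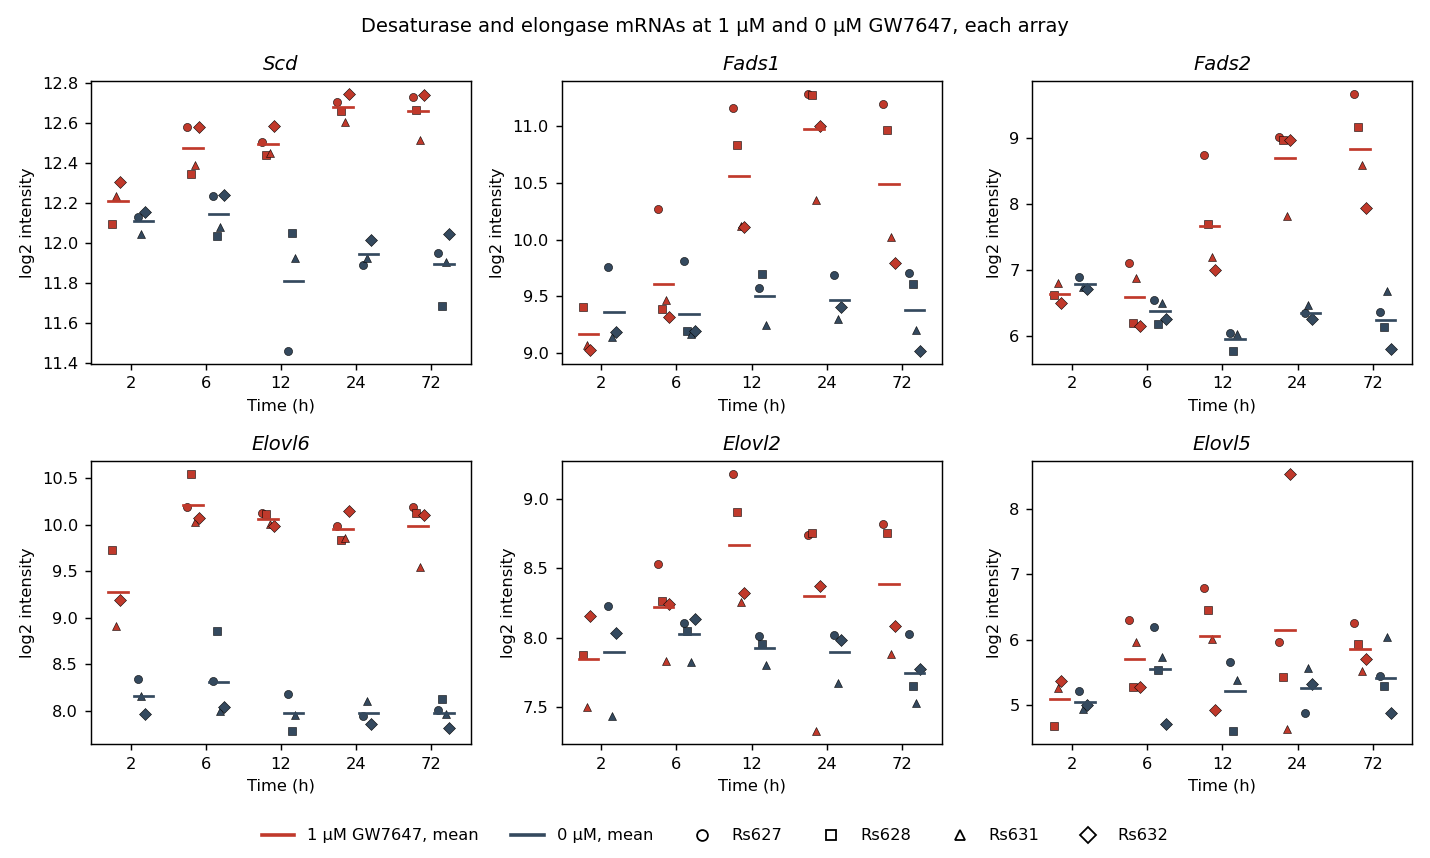
Log2 intensity of each gene on every array at 1 µM (left of each pair, red) and 0 µM (right, dark) by time in hours; symbols are rats and bars are group means. From 12 h the arrays at 1 µM lie above all those at 0 µM for Fads1 and Fads2. They do so from 6 h for Scd and from 2 h for Elovl6.

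Scd rose by a modest but tight margin. At 72 h its log2 intensity was 12.73, 12.66, 12.51 and 12.74 at 1 µM (Rs627, Rs628, Rs631 and Rs632), against 11.95, 11.68, 11.90 and 12.04 at 0 µM. Every array at 1 µM lay above every array at 0 µM, and the difference within a rat ran from 0.61 to 0.98. The log2 change was 0.77 ± 0.10 (SE), or 1.70-fold, with an adjusted p of 3.32e-09, and as with every change in these cultures, more RNA per cell and a larger share of cells with it cannot be told apart.

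The difference of Scd between 1 and 0 µM grew up to 12 h. At 6 h the values were 12.58, 12.35, 12.39 and 12.58 at 1 µM against 12.23, 12.03, 12.08 and 12.24 at 0 µM, so that the groups did not overlap and each of the 4 rats was higher by 0.31 to 0.35. This change of 0.33 ± 0.10 missed the threshold (adjusted p = 0.0716) but passed under the rat block (adjusted p = 0.00269). By 12 h the change was 0.68 ± 0.11 (adjusted p = 1.79e-06) and by 24 h 0.74 ± 0.11 (adjusted p = 1.68e-07). The mean at 1 µM hardly moved between 6 and 12 h, from 12.48 to 12.50. The mean at 0 µM went from 12.15 (n = 4) to 11.81 (n = 3, without Rs632). At 72 h the means were 12.66 and 11.90. The larger change after 6 h therefore goes in part with lower values at 0 µM. Without the doubtful 0 µM arrays, which leaves a single 0 µM array at 12 h, the change at 12 h was 0.57. At 2 h the groups overlapped, at 12.09, 12.24 and 12.31 at 1 µM (Rs628, Rs631 and Rs632) against 12.13, 12.04 and 12.15 at 0 µM (Rs627, Rs631 and Rs632).

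Fads1, the desaturase that makes arachidonate from its immediate precursor, was also called from 12 h, with more spread between rats. At 24 h its log2 intensity was 11.28, 11.27, 10.34 and 10.999 at 1 µM (Rs627, Rs628, Rs631 and Rs632), against 9.69, 9.30 and 9.40 at 0 µM (Rs627, Rs631 and Rs632). The groups did not overlap, and Rs631, whose array was one of low signal, was the lowest treated one. The change was 1.51 ± 0.31, or 2.85-fold (adjusted p = 1.58e-04), with 1.04 to 1.60 within a rat. Without the low-signal arrays it was 1.81, but that leaves Rs627 and Rs628 at 1 µM against Rs627, Rs631 and Rs632 at 0 µM, and Rs627 and Rs628 had the higher Fads1 levels throughout. At 72 h the values were 11.19, 10.97, 10.02 and 9.79 at 1 µM against 9.71, 9.60, 9.20 and 9.02 at 0 µM, and the change was 1.11 ± 0.29 (adjusted p = 0.00219). The treated arrays of Rs632 and Rs631 stood only just above the untreated arrays of Rs627 and Rs628, while each rat on its own rose, by 0.77 to 1.49.

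At 12 h the call for Fads1 was less firm. The values were 11.16, 10.83, 10.12 and 10.11 at 1 µM against 9.57, 9.69 and 9.25 at 0 µM, a change of 1.05 ± 0.31 (adjusted p = 0.0291). It was 1.31 without the doubtful 0 µM arrays, which leaves a single 0 µM array. Under the rat block with the labels of those arrays exchanged it was 1.15, with an adjusted p of 1.45e-08. In the model without the block, the adjusted p was above the threshold when Rs627 (0.129), Rs628 (0.0809) or Rs631 (0.162) was left out. It was also above the threshold without the arrays at repeated plate positions (0.0815). At 2 and 6 h Fads1 did not pass the test, with changes of -0.20 ± 0.34 and 0.27 ± 0.29.

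Fads2, which catalyses the first step of desaturation of linoleate and α-linolenate, showed the largest change among the 6 genes at 72 h. Its values there were 9.67, 9.16, 8.58 and 7.93 at 1 µM (Rs627, Rs628, Rs631 and Rs632), against 6.36, 6.14, 6.69 and 5.81 at 0 µM. The groups lay far apart, and the rise within a rat ran from 1.90 to 3.30. The change was 2.59 ± 0.30, or 6.00-fold (adjusted p = 6.80e-11). At 24 h the values were 9.01, 8.97, 7.82 and 8.97 at 1 µM against 6.34, 6.46 and 6.25 at 0 µM, a change of 2.34 ± 0.32, or 5.05-fold (adjusted p = 3.16e-08).

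Fads2 did not respond detectably in the first hours. At 6 h its values were 7.11, 6.20, 6.88 and 6.15 at 1 µM against 6.55, 6.18, 6.50 and 6.26 at 0 µM, overlapping groups with a change of 0.21 ± 0.30 (adjusted p = 0.992). At 12 h they were 8.74, 7.70, 7.20 and 6.997 at 1 µM against 6.04, 5.78 and 6.03 at 0 µM. All treated arrays were then higher, by 1.71 ± 0.32 (adjusted p = 8.11e-05). Without the doubtful 0 µM arrays the change was 1.62, resting on a single 0 µM array. The change at 72 h exceeded that at 6 h by 2.37 ± 0.42 (adjusted p = 6.03e-05), a direct test of the difference in which Fads2 alone of the 6 genes passed. Over all genes tested 3.11% had a larger change at 72 h by this test. For Fads1 the difference was 0.84 (adjusted p = 0.291, and 0.00165 under the rat block) and for Scd 0.44 (adjusted p = 0.0522, and 0.00199 under the block).

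Elovl6, the elongase of palmitate, was higher on treated arrays from the first time. At 2 h its values were 9.73, 8.91 and 9.19 at 1 µM (Rs628, Rs631 and Rs632), against 8.34, 8.16 and 7.97 at 0 µM (Rs627, Rs631 and Rs632). The groups did not overlap, but the change of 1.12 ± 0.31 missed the threshold (adjusted p = 0.100) and passed it only under the rat block (adjusted p = 0.00768). At 10 µM and 2 h the values were 9.97, 9.59, 9.18 and 10.33 and the change was 1.61 ± 0.29, or 3.06-fold (adjusted p = 2.13e-04). Fitted to the 2 h arrays alone, the adjusted p at 10 µM was 0.203, and under the rat block with all arrays it was 7.62e-06.

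From 6 h on, the change of Elovl6 at 1 µM lay between 1.90 and 2.09. At 6 h its values were 10.19, 10.54, 10.02 and 10.07 at 1 µM against 8.32, 8.86, 7.99 and 8.04 at 0 µM, and at 72 h 10.19, 10.13, 9.54 and 10.10 at 1 µM against 8.01, 8.13, 7.96 and 7.81 at 0 µM. All treated arrays lay above all untreated ones at both times. The change was 1.90 ± 0.27 at 6 h (adjusted p = 1.60e-07), 2.09 ± 0.29 at 12 h, 1.98 ± 0.29 at 24 h and 2.01 ± 0.27, or 4.04-fold, at 72 h (adjusted p = 4.51e-09). Without the doubtful 0 µM arrays it was 2.10 at 12 h, resting on a single 0 µM array. The change at 72 h differed from that at 6 h by 0.11, with a 95% interval from -0.64 to 0.86. The other probe set of Elovl6, 1394401_PM_at, gave changes of 1.47 ± 0.39, 2.27 ± 0.34, 2.27 ± 0.37, 2.05 ± 0.37 and 2.08 ± 0.34 at the 5 times.

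Elovl2, the elongase of long polyunsaturated acids, had small changes. At 72 h its values were 8.82, 8.75, 7.89 and 8.08 at 1 µM (Rs627, Rs628, Rs631 and Rs632), against 8.03, 7.65, 7.53 and 7.78 at 0 µM. The groups overlapped, because Rs631 treated lay under Rs627 untreated, but each rat was higher with treatment, by 0.31 to 1.10. The change of 0.64 ± 0.28 had an adjusted p of 0.0867, and 0.00849 under the rat block. At 12 h every array at 1 µM lay above those at 0 µM, and the change was 0.74 ± 0.31 (adjusted p = 0.190, and 0.0170 with the block). Without the doubtful arrays a single 0 µM array was left at 12 h, at 7.81 beside a mean of 8.67 at 1 µM. Elovl2 passed at 72 h also after quantile normalization (0.0267) and without Rs631 (0.0209) or the low-signal arrays (0.0385). At 24 h the change was 0.40 ± 0.31, with -0.35 to 0.72 within a rat, and Rs631 at 1 µM had the lowest value, 7.33, on an array of low signal. Without such arrays it was 0.85 (adjusted p = 0.0583), with the same unequal rats as for Fads1.

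Elovl5, the elongase between the Fads2 and Fads1 steps, had a mean log2 intensity of 5.48, near the floor of 5 set as the filter on low values. Its intensity exceeded the floor of 5 in 82 of 100 arrays and ranged from 4.15 to 8.53. At 72 h the values were 6.25, 5.94, 5.52 and 5.71 at 1 µM against 5.45, 5.29, 6.04 and 4.88 at 0 µM. These groups overlapped, with Rs631 lower when treated and the other rats higher, and the change was 0.44 ± 0.42 (adjusted p = 0.487). At 24 h the change of 0.88 ± 0.45 (adjusted p = 0.126) included Rs632, whose array of low signal read 8.53 beside 5.96, 5.43 and 4.64 in Rs627, Rs628 and Rs631, and it was 0.44 without the low-signal arrays, again with unequal rats. At 12 h the values were 6.79, 6.45, 6.02 and 4.93 at 1 µM against 5.67, 4.61 and 5.38 at 0 µM, a change of 0.83 ± 0.45 (adjusted p = 0.415), which became 1.20 (adjusted p = 0.0437) without Rs632 and 1.29 (adjusted p = 0.0313) without the arrays at repeated plate positions. Without the doubtful 0 µM arrays, which leaves a single 0 µM array, it was 0.67.

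**Figure D2:**
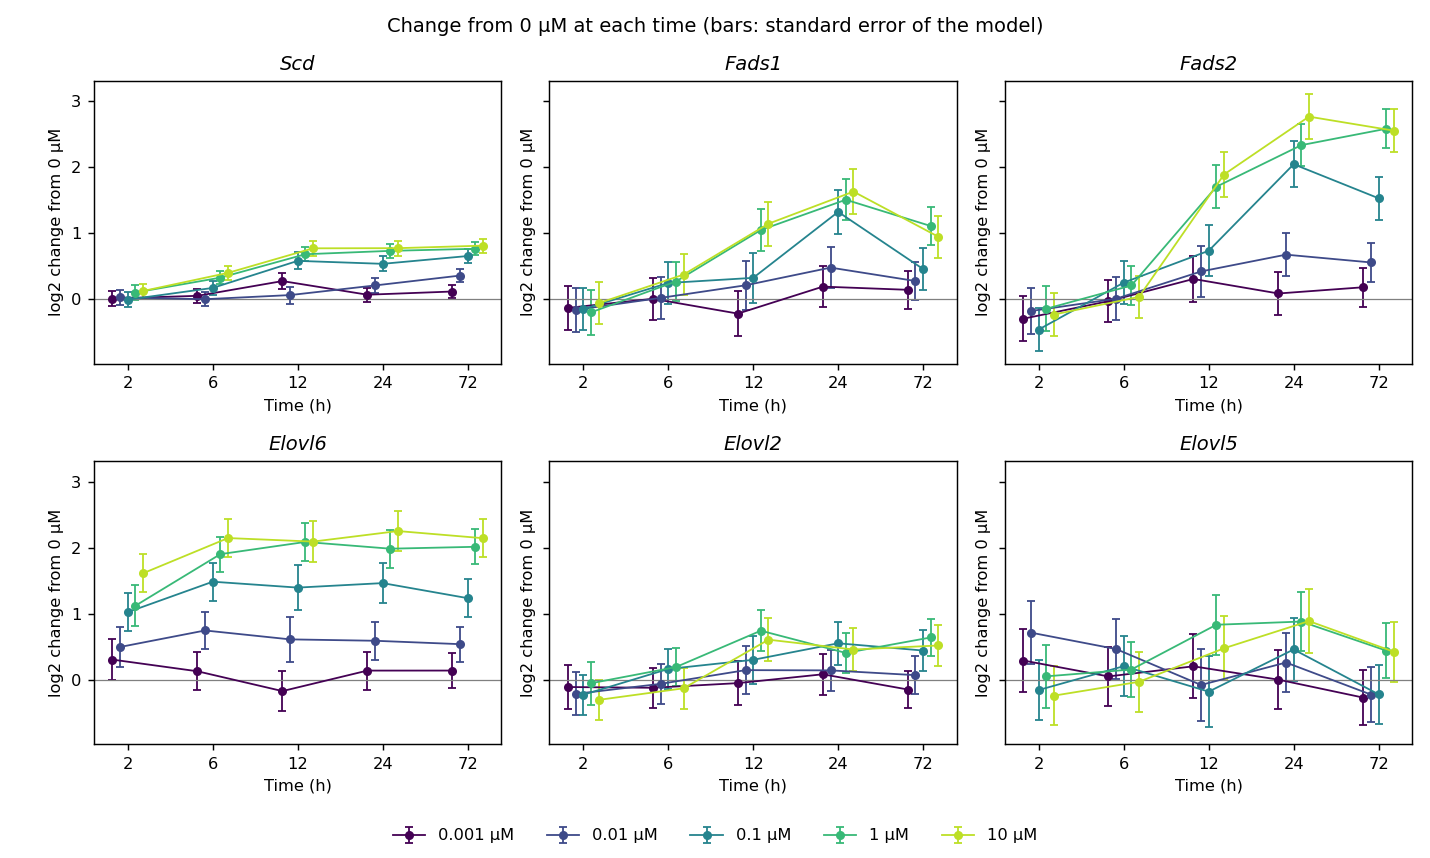
Log2 change from 0 µM by time in hours, a line for each concentration, with standard errors of the model. At 0.1 µM and above Elovl6 lies between 1.23 and 2.25 from 6 h on, whereas Fads2 climbs between 6 and 24 h, to 2.77 at 10 µM.

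The number of genes called grew with concentration up to 1 µM. Averaged over the 5 times, none of the 6 genes was called at 0.001 µM, 1 at 0.01 µM, 4 at 0.1 µM, 5 at 1 µM and 4 at 10 µM, all of them higher. Of all genes tested, 0% were called higher at 0.001 µM, 0.656% at 0.01 µM, 6.34% at 0.1 µM, 11.7% at 1 µM and 11.7% at 10 µM. At 0.001 µM, where limma called no gene, 1 of the 6 genes (Scd) and 20 of all genes had an unadjusted p under 0.05, and no gene was called under the rat block. The median change of the 6 genes was 0.05, 0.20, 0.42, 0.64 and 0.69 from 0.001 to 10 µM, against -0.02, -0.03, -0.04, -0.07 and -0.08 over all genes.

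Elovl6 was the gene called at 0.01 µM. Its averaged change was 0.11 ± 0.13 at 0.001 µM, 0.60 ± 0.13 at 0.01 µM (1.51-fold, adjusted p = 0.00647), 1.32 ± 0.14 at 0.1 µM, 1.82 ± 0.13 at 1 µM and 2.05 ± 0.13 at 10 µM (4.14-fold, adjusted p = 1.57e-22). The call at 0.01 µM was lost without Rs627 (adjusted p = 0.170), Rs628 (0.0956) or Rs631 (0.243), with changes of 0.48 to 0.64. Under the rat block the adjusted p there was 1.42e-04. The other probe set of Elovl6 gave 0.61 ± 0.17 at 0.01 µM with an adjusted p of 0.116.

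The desaturases were called from 0.1 µM. Scd changed by 0.11 ± 0.05, 0.13 ± 0.05, 0.39 ± 0.05, 0.52 ± 0.05 and 0.58 ± 0.05 from 0.001 to 10 µM, and was called from 0.1 µM (adjusted p = 5.79e-09); under the rat block it was called at 0.01 µM as well (adjusted p = 0.0185). Fads2 changed by 0.05 ± 0.15, 0.30 ± 0.15, 0.82 ± 0.15, 1.34 ± 0.14 and 1.41 ± 0.15, again called from 0.1 µM (adjusted p = 3.03e-05). Fads1 changed by 0.00 ± 0.14, 0.17 ± 0.15, 0.44 ± 0.15, 0.75 ± 0.14 and 0.81 ± 0.14. Its call at 0.1 µM (adjusted p = 0.0320) was lost without Rs628, Rs631 or Rs632, with adjusted p from 0.121 to 0.150, and without the arrays at repeated plate positions (0.0604). Under the rat block the adjusted p at 0.1 µM was 4.08e-08.

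Elovl2 reached 0.38 ± 0.14 at 1 µM (adjusted p = 0.0198) and 0.23 ± 0.14 at 10 µM (adjusted p = 0.198). The call at 1 µM was lost without Rs627 (0.0811), Rs628 (0.142) or Rs632 (0.0901), and under the rat block Elovl2 was called at 0.1, 1 and 10 µM (adjusted p = 0.0264, 5.93e-04 and 0.0188). At 10 µM Elovl2 was also called after quantile normalization (0.31, adjusted p = 0.0453) and without the low-signal arrays (0.33, 0.0397) or those at repeated plate positions (0.39, 0.0268). Elovl5 changed by 0.47 ± 0.20 at 1 µM (adjusted p = 0.0559, and 0.0253 under the rat block) and by 0.30 ± 0.21 at 10 µM (adjusted p = 0.251). Without the arrays at repeated plate positions it was called at both, at 0.50 (adjusted p = 0.0125) and 0.53 (adjusted p = 0.0115), and at 1 µM also after quantile normalization (0.0278).

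**Figure D3:**
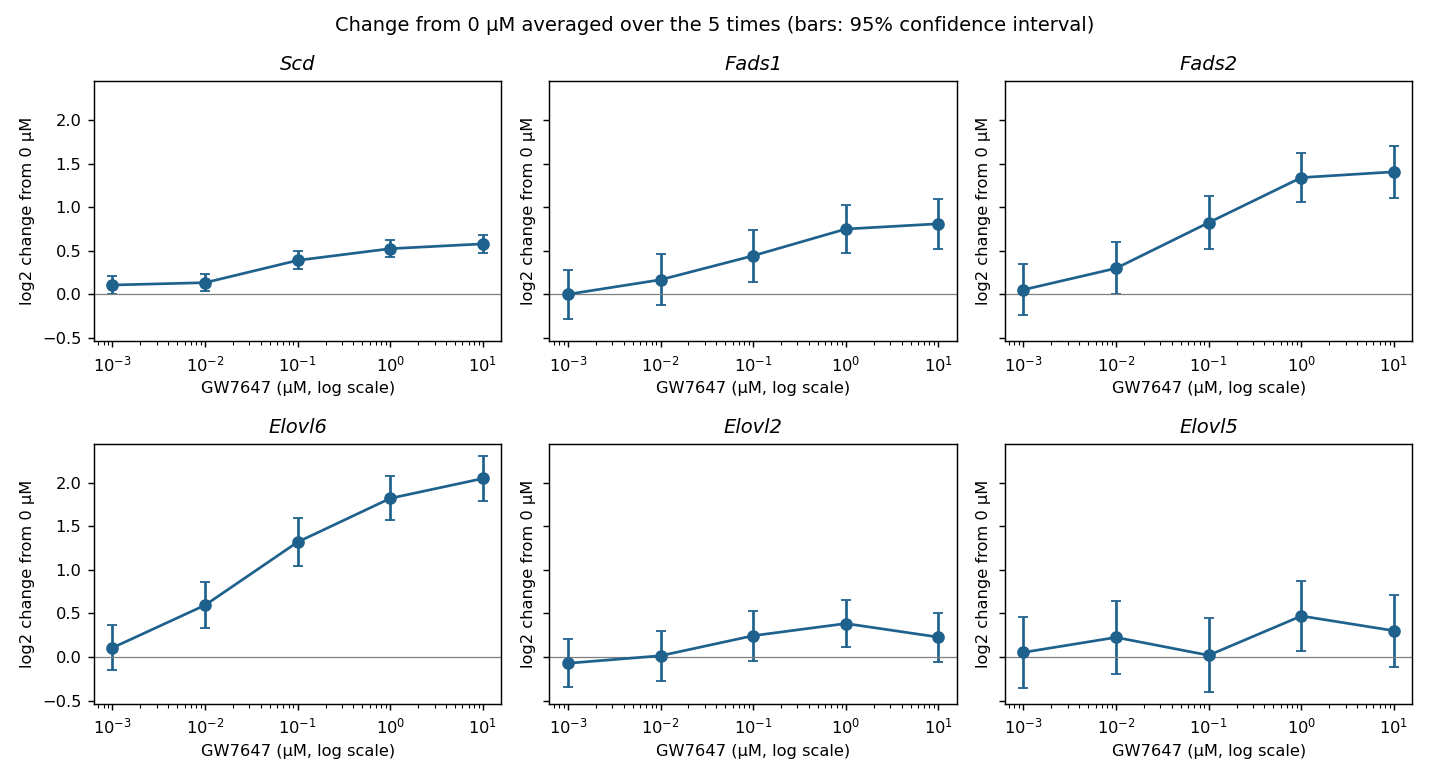
Log2 change from 0 µM averaged over the 5 times against concentration in µM on a log scale, with 95% confidence intervals. Elovl6 rises to 2.05 and Fads2 to 1.41 at 10 µM, and the intervals at 1 and 10 µM overlap for each of the 6 genes.

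The step from 1 to 10 µM was tested directly. None of the 6 genes and 0% of all genes were called by limma, with 0 of the 6 and 98 of all genes at an unadjusted p under 0.05, and none under the rat block. The difference was 0.23 for Elovl6 with a 95% interval from -0.03 to 0.48, 0.07 for Fads2 (-0.22 to 0.35), 0.06 for Fads1 (-0.22 to 0.34) and 0.05 for Scd (-0.04 to 0.15). It was -0.16 for Elovl2 (-0.43 to 0.12) and -0.17 for Elovl5 (-0.57 to 0.23). These intervals leave room for a rise of up to 0.48 in Elovl6, so a further step at 10 µM was not detected, which does not show that there is none.

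At 0.001 µM none of the 6 genes was called at any time, and 0% of all genes were called at each of the 5 times; at an unadjusted p under 0.05 there were 14, 16, 68, 11 and 101 genes, of which 1 was of the 6 (Scd at 12 h). At 0.01 µM none of the 6 was called at any time, with 0.0113%, 0%, 0.0339%, 0.136% and 0.396% of all genes called higher at 2, 6, 12, 24 and 72 h. Unadjusted, 0, 1, 0, 2 and 2 of the 6 genes were under 0.05, and 100, 54, 110, 161 and 1188 of all genes. Scd at 72 h came closest, at 12.30, 12.12, 12.17 and 12.44 at 0.01 µM in Rs627, Rs628, Rs631 and Rs632. All 4 of these arrays lay above those at 0 µM, with a change of 0.36 (adjusted p = 0.0952, and 0.00226 under the rat block).

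At 0.1 µM the numbers called were 0, 1, 2, 4 and 3 at 2, 6, 12, 24 and 72 h, and 1, 1, 3, 4 and 4 under the rat block, against 0.147%, 0.882%, 1.47%, 2.96% and 4% of all genes called higher. At 2 h, with none of the 6 called, 1 of the 6 (Elovl6) and 363 of all genes had an unadjusted p under 0.05. Elovl6 changed by 1.02, 1.48, 1.39, 1.46 and 1.23 and was called from 6 h, or from 2 h under the rat block (adjusted p = 0.0311), though without Rs631 not at 6 h (adjusted p = 0.109). Fads2 at 24 h stood at 8.92, 8.40 and 7.89 at 0.1 µM (Rs627, Rs628 and Rs631) against 6.34, 6.46 and 6.25 at 0 µM, a change of 2.05 ± 0.34 (adjusted p = 1.10e-05). Its call at 72 h (1.53) was lost without Rs628 (0.0663), and that of Scd at 24 h (0.54) without Rs627 (0.115). Fads1 was called at 24 h, at 1.33 ± 0.34 (adjusted p = 0.00784), a call lost without Rs631 (0.0533) or Rs632 (0.0817). Under the rat block it was called at 12, 24 and 72 h (adjusted p = 0.0105, 1.57e-07 and 0.00275). At 12 h this concentration had only 2 arrays, and the calls of Scd (0.58) and Elovl6 (1.39) there were lost in several settings. That of Scd was lost in a fit to the 12 h arrays alone (adjusted p = 0.403) and without Rs627 (0.332). That of Elovl6 was lost in a fit to the 12 h arrays alone (0.0537), without Rs628 (0.0680) and without labels ending in 2 (0.0777). Without the doubtful 0 µM arrays, which leaves a single 0 µM array, the changes were 0.47 for Scd and 1.41 for Elovl6.

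At 10 µM the numbers called were 1, 2, 4, 4 and 4, and 1, 3, 5, 4 and 5 under the rat block, against 0.498%, 1.56%, 5.55%, 6.43% and 12.5% of all genes called higher. Elovl6 was the gene called at 2 h, and Scd joined it at 6 h at 12.63, 12.47 and 12.54 (Rs627, Rs631 and Rs632), a change of 0.40 ± 0.11 (adjusted p = 0.0175). This call of Scd was lost without Rs627 (0.301), Rs632 (0.0574), the low-signal arrays (0.172) or those at repeated plate positions (0.377). Fads2 reached its highest group mean at 24 h, with 9.25, 8.66 and 9.46 in Rs628, Rs631 and Rs632, a change of 2.77 ± 0.34, or 6.82-fold (adjusted p = 1.63e-09). Fads1 was called at 12, 24 and 72 h with changes of 1.15, 1.63 and 0.95. Of these, the call at 12 h was lost without Rs631 (adjusted p = 0.239) or Rs632 (0.0948). That at 72 h was lost without Rs628 (0.216), Rs631 (0.0544) or Rs632 (0.0731). Leaving out a rat also leaves fewer arrays. Under the rat block, which pairs arrays by animal, the adjusted p at 72 h was 2.14e-08, with 0.86 to 1.41 within a rat. Without the doubtful 0 µM arrays the change at 12 h was 1.40. The rat block added Fads1 at 6 h (adjusted p = 0.0447) and Elovl2 at 12 h (0.0335) and 72 h (0.0211).

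Without the agent, only 72 h against 2 h was tested, and no change was detected in these genes between those times. Between 72 and 2 h at 0 µM none of them was called, against 3.4% of all genes in either direction, and 0 of the 6 and 1629 of all genes had an unadjusted p under 0.05. Fads2 was 6.36, 6.14, 6.69 and 5.81 at 72 h against 6.89, 6.75 and 6.71 at 2 h, with a change of -0.53 and a 95% interval from -1.17 to 0.11. All 72 h arrays were below all 2 h arrays for Fads2 and for Scd, while the median of all genes moved by -0.17. How many of all genes separated in this way was not counted. At 0 µM Fads2 and Scd had their lowest group mean at 12 h. Fads2 was 5.95 ± 0.15 there against 6.78 ± 0.10 at 2 h, and Scd 11.81 ± 0.31 against 12.11 ± 0.06 (SD, n = 3 each). These differences were not tested. Scd changed by -0.21 (-0.43 to 0.00), Elovl6 by -0.18 (-0.75 to 0.39), Elovl2 by -0.15 (-0.76 to 0.46), Fads1 by 0.02 (-0.60 to 0.65) and Elovl5 by 0.36 (-0.54 to 1.26). The median of all genes moved by -0.17 between these times as deposited and by -0.0043 after quantile normalization. The genes called were 20 higher and 281 lower as deposited, 39 and 45 after quantile normalization, and 26 and 16 after median centring. The direction of Elovl2 turned under quantile normalization (0.02) and median centring (0.04), and that of Elovl6 under median centring (0.01).

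The 4 rats differed in the level of some of these genes throughout. Fads1 lay above the mean of its group of time and concentration in 22 of 22 arrays of Rs627 and 19 of 21 of Rs628, but in 2 of 30 of Rs631 and 2 of 27 of Rs632. The mean offset was 0.43 ± 0.18 in Rs627 and 0.24 ± 0.23 in Rs628, and -0.27 ± 0.17 in Rs631 and -0.24 ± 0.18 in Rs632 (SD over arrays). Scd had another order, with 26 of 27 arrays of Rs632 above the group mean and 3 of 21 of Rs628. Elovl2 was low in Rs631, where 4 of 30 arrays were above the mean. Arrays of a rat share their animal, so these counts describe 4 animals and were not tested.

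**Figure D4:**
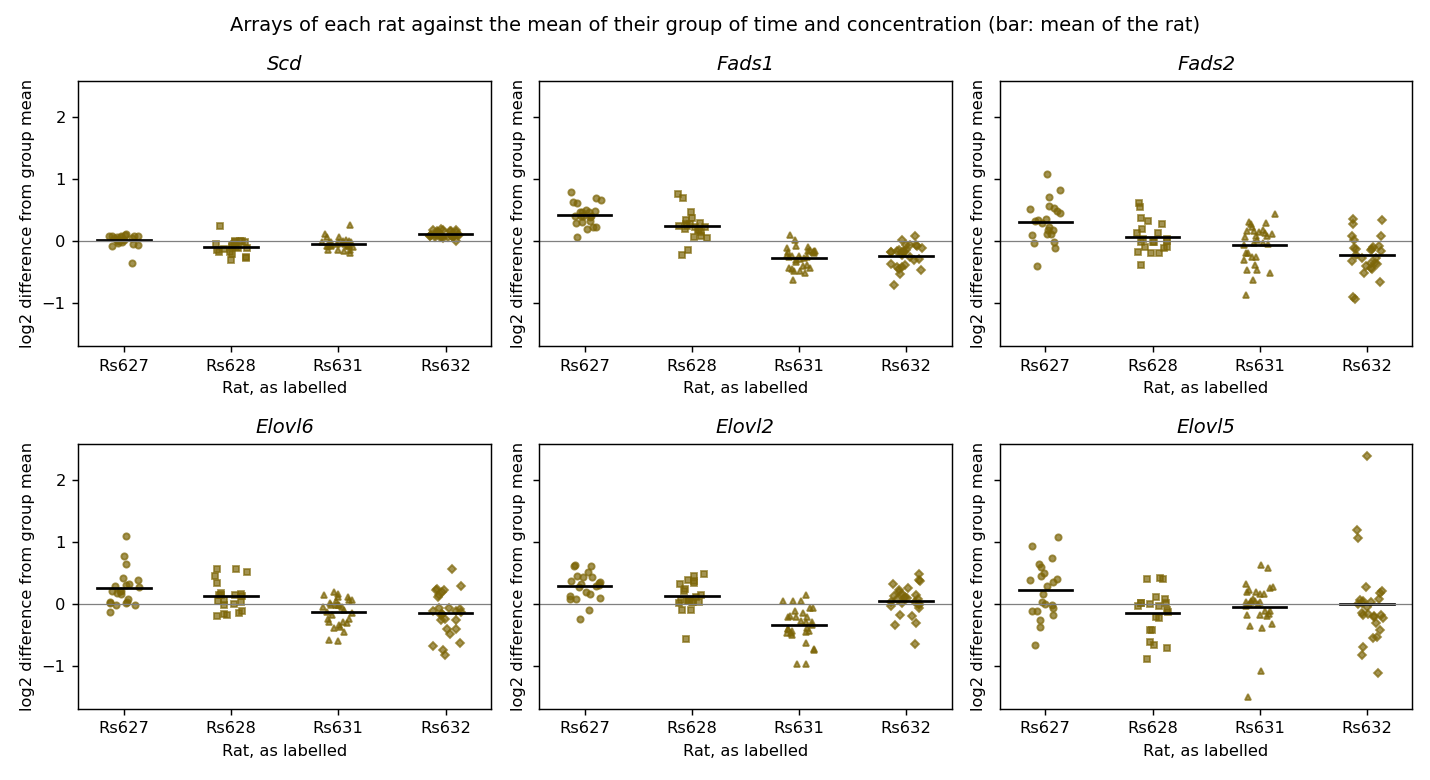
Log2 difference of each array from the mean of its group of time and concentration, by rat as labelled, with the mean of each rat as a bar. Fads1 separates Rs627 and Rs628, which are above 0, from Rs631 and Rs632, which are below it, while Scd is highest in Rs632.

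Across the 30 group means, which share the rats and the 0 µM groups and so are a description, Fads1 and Fads2 ran most closely together of the 15 pairs (Pearson r = 0.90). Scd and Elovl6 followed at 0.87 and Fads2 and Scd at 0.84, and Elovl5 and Elovl6 were the least alike at 0.48. Among all genes tested, the 3 most like Fads1 were Ptdss2 (r = 0.96), which makes phosphatidylserine, Gulo (0.96), of vitamin C synthesis, and Agpat2 (0.95), of phosphatidate synthesis. Those most like Fads2 were Acot8, a peroxisomal thioesterase (0.97), Pc, pyruvate carboxylase (0.97), and Tfr2, a transferrin receptor (0.97). Scd was most like Me1, malic enzyme (0.94), Gpd1, glycerol-3-phosphate dehydrogenase (0.94), and Nudt7, a peroxisomal hydrolase of CoA (0.94), and Elovl6 most like Mlycd, malonyl-CoA decarboxylase (0.96), Acot2, a mitochondrial thioesterase (0.96), and the kinase Sgk2 (0.95). For Elovl2 these were Myorg (0.93), Paqr9 (0.92) and Adi1 (0.91), and for Elovl5 Zfp148 (0.84), Gucy1b1 (0.78) and Egln1 (0.77).

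Other genes of the pathway were taken from lists and are given at 1 µM averaged over the times, where 11.7% of all genes were called higher and 23.6% lower. Of 10 other desaturases and elongases, 4 could be tested, and of these 1 rose, 1 fell and 2 did not pass, with a median of 0.13 against -0.07 over all genes. Elovl1, the elongase of very long saturated acids, rose by 0.29 ± 0.05 (adjusted p = 5.99e-06). Fads3, which neighbours Fads2 on the chromosome, fell by 0.68 on the log2 scale (SE 0.12, adjusted p = 2.84e-06), opposite in sign to Fads2. Scd2 changed by 0.61 ± 0.53 (adjusted p = 0.391, and 0.0194 under the rat block) and Degs1, a ceramide desaturase, by -0.04 ± 0.05 (adjusted p = 0.654).

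An elongase performs only the first reaction of a cycle, and a desaturase needs electrons from cytochrome b5. Of 6 other enzymes of the elongation cycle 3 could be tested, of which 1 rose and 1 fell, with a median of -0.12. Hsd17b12, the ketoacyl-CoA reductase, rose by 0.77 ± 0.07, or 1.70-fold (adjusted p = 4.95e-14), while Hacd1, a dehydratase, fell by 0.33 (SE 0.11, adjusted p = 0.0162) and its relative Hacd3 changed by -0.12 ± 0.06 (adjusted p = 0.0867, and 5.39e-04 under the rat block). Of 6 electron donors 4 could be tested and 2 rose (median 0.06), namely Cyb5a by 0.11 ± 0.04 (adjusted p = 0.0393) and Cyb5b by 0.28 ± 0.09 (adjusted p = 0.0140), both forms of cytochrome b5. The reductase Cyb5r3 changed by -0.03 ± 0.06 and Cyb5r4 by 0.01 ± 0.05.

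Of 16 genes of lipogenesis 14 could be tested, and 7 rose, 2 fell and 5 did not pass, with a median of 0.21 against -0.07 over all genes. Malic enzyme Me1, a source of NADPH, rose by 1.10 ± 0.10, Gpam, which starts glycerolipid synthesis, by 0.76 ± 0.14 and Srebf1, which encodes SREBP-1, by 0.63 ± 0.08 (adjusted p = 5.79e-10). Thrsp (0.49), Insig1 (0.47), and the liver X receptors Nr1h3 (0.38) and Nr1h2 (0.25) also rose. Acly, ATP citrate lyase, fell by 0.31 and Acaca, acetyl-CoA carboxylase, by 0.20, and fatty acid synthase Fasn changed by 0.17 ± 0.09 (adjusted p = 0.146, and 0.0258 under the rat block). Under the block 8 of these genes rose and 4 fell, with Mlxipl (-0.22, adjusted p = 0.0121) and Srebf2 (-0.23, 0.00756) added to those that fell. The lists were chosen with earlier results of these data known, so these counts are not independent evidence of a direction.

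Of 8 genes for the activation and remodelling of long-chain acids 7 could be tested, and 5 rose and 1 fell, with a median of 0.45. The acyl-CoA synthetases Acsl1 (1.63 ± 0.08), Acsl3 (1.40 ± 0.14) and Acsl5 (0.45 ± 0.05) and the lysophospholipid acyltransferases Lpcat3 (1.12 ± 0.06) and Agpat3 (0.24 ± 0.07) rose, and Acsl4, which prefers arachidonate, fell by 0.26. Of 6 genes of peroxisomal chain shortening 3 could be tested and all 3 rose (median 0.59), by 3.72 ± 0.12 for Ehhadh, 0.59 ± 0.03 for Hsd17b4 and 0.19 ± 0.04 for Scp2. As a yardstick, all 3 tested genes of a list of known PPARα targets rose, Ehhadh as given, Pdk4 by 3.63 ± 0.20 and Cpt1a by 1.62 ± 0.11 (median 3.63).

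Markers of other liver cells were given beside these values. Of 6 macrophage markers with a probe set, only Cd68 exceeded the floor of 5 in any array of these concentrations, and their summed intensity was 68.0 to 149.7 at 1 µM against 65.6 to 148.6 at 0 µM over all times. None of 4 endothelial markers did, with sums of 32.2 to 43.7 against 31.0 to 41.2. Sums of the 7 stellate and fibroblast markers were 173.6 to 346.4 against 178.7 to 325.8, with Col1a1, Des and Lrat at the floor in both groups. Of the 7, Acta2 and Col1a2 fell, by 0.23 and 0.22. Sums of the 5 bile duct markers were 809.5 to 2452 against 914.0 to 2638, with Sox9 at the floor. The summed intensity of 7 hepatocyte markers was lower at 72 h, at 29404 to 32697 at 1 µM against 37274 to 39911 at 0 µM. At that time Serpina1 fell by 0.88, Fgb by 0.86 and Ttr by 0.28, Cyp2e1 rose by 2.94, and the median of the 7 was -0.28 against -0.06 over all genes. At the same time the 3′ to 5′ difference of β-actin probe sets, a measure of RNA quality, was 1.97 ± 0.15 at 1 µM against 1.66 ± 0.18 at 0 µM (SD, n = 4 each). That of GAPDH probe sets was 0.34 ± 0.10 at 1 µM against 0.35 ± 0.06 at 0 µM, so the 2 measures did not differ alike. The part of these differences in the changes at 72 h was not tested.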

How the data were processed

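Biotin-labelled RNA was hybridised to Affymetrix rat arrays, per the labels' protocols. The deposited log2 intensity values come from the authors; the submitters' processing notes list GCRMA and Partek with neither a version nor an order, and no depth applies, so that the number of arrays limits the precision. Of 31139 probe sets 19069 had 1 gene symbol, 572 several and 11498 none in the platform annotation, and 18989 matched RefSeq by gene ID. The probe set with the highest mean stood for each gene. The test took in genes that exceeded a log2 intensity of 5 on 3 or more arrays, on the scale as deposited. Each of the 30 groups of time and concentration had its own mean in a linear model (limma 3.58.1 in R 4.3.3, two-sided moderated test, 70 residual degrees of freedom), with Benjamini-Hochberg adjustment and a threshold of 0.05. A fold is 2 to the power of the log2 change, and SE is the standard error of the model. Every sample column of the value table was mapped to a sample (0 left over). The code was tested on simulated data.

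The rat is named in the labels as the biological replicate, so arrays of a rat are paired by animal: deviations from group means correlated at a median of 0.62 between arrays of the same rat and -0.229 between rats. The model with the rat as a block is given where it changes a call of the 6 genes, and for some calls lost in other settings. Every call of the 6 genes without the block was also made with it. A fit that leaves out a rat also has fewer arrays. The 0 µM arrays at 12 h labelled Rs627 and Rs628 correlated at 0.698 and 0.463 with the other rat, against -0.02 and -0.209 with their own. Alternatives were the block, other normalizations and filters, another variance prior, only the times compared, every probe set separately, each rat left out, and sets of arrays left out (low signal, repeated plate positions, labels ending in 2, the doubtful 12 h arrays). The block with the rat labels of those 12 h arrays exchanged was chosen after seeing the data.

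The 6 genes, the pathway lists and the markers were chosen with earlier results of these data known. Named besides the 6 genes are the 3 genes most like each of them over the group means and members of the lists. Promoters were taken from RefSeq (GRCr8), the 250 bases before the start. Figures were drawn with matplotlib 3.10.9.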

Additional observations from a re-analysis of the deposited data

Results flagged for a closer look

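Of 72 groups of 4 arrays (12 groups for each of the 6 genes), 4 had an array far from the other arrays of its group by Dixon's criterion, which chance meets in about 1 group in 20. Fads1 was high in Rs627 at 6 h both at 1 µM, at 10.26 beside 9.32, 9.39 and 9.47, and at 0 µM, at 9.81 beside 9.17, 9.19 and 9.19. Fads2 was low in Rs631 at 1 µM and 24 h, at 7.82 beside 8.97, 8.97 and 9.01, on an array of low overall signal. Elovl6 was low in Rs631 at 1 µM and 72 h, at 9.54 beside 10.10, 10.13 and 10.19. The change of Fads2 at 1 µM differed between times by a direct test, being larger at 72 h than at 6 h by 2.37 on the log2 scale (limma, adjusted p = 6.03e-05), and the change was larger at 72 h in each of the 4 rats.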

How the results depend on the processing

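Over 103 comparisons of single genes, of which 53 were called, 17 alternatives gave 1702 values. Of these, 1584 kept direction and call, 46 lost the call, 41 gained it and 31, none of them of a called change, turned direction. With the rat as a replicate block, original or exchanged labels alike, 1 gene was called at 1 µM and 2 h (0 without it), 2 at 6 h (1), 2 at 0.01 µM averaged (1) and 3 in the 72 h minus 6 h difference (1). At 6 h the count was also 2 under the variance trend, quantile normalization and without the doubtful 12 h arrays. Without those arrays the 12 h comparison has a single 0 µM array, so its count is not given. The 72 h minus 6 h count was 2 under the stricter filter, the variance trend and without the low-signal, repeated-position, ending-in-2 or doubtful arrays. Leaving out each rat gave 0 to 1 calls at 0.01 µM averaged. Turned directions lay near 0. At 1 µM and 2 h leaving out rats gave -0.32 to 0.00072 for Fads1, -0.14 to 0.11 for Elovl2 (0.0067 with the block, 0.0047 exchanged) and -0.10 to 0.26 for Elovl5 (-0.0113 after quantile normalization). At 0.001 µM averaged it gave -0.11 to 0.0643 for Fads1, -0.0394 to 0.15 for Fads2 and -0.0420 to 0.14 for Elovl5. At 0.01 µM it gave -0.0564 to 0.0687 for Elovl2 (-0.10 without repeated positions), and at 0.1 µM -0.0358 to 0.10 for Elovl5 (-0.0020 without repeated positions, -0.0410 without labels ending in 2, -0.0127 without the doubtful arrays). For 10 against 1 µM, Fads2 ran from -0.0160 to 0.26 and Elovl5 was 0.0393 without low-signal arrays and 0.0342 without repeated positions. Elovl6 at 72 h minus 6 h was -0.17 without repeated positions. At 0 µM, 72 against 2 h, Fads1 was -0.0453 with the block, -0.0432 exchanged and -0.0515 to 0.11 leaving out rats, Elovl2 was 0.0191 after quantile normalization and 0.0379 after median centring, and Elovl6 0.0109 after the last. Over all genes the counts called were 33 (9 to 86 over alternatives), 180 (104 to 474), 478 (177 to 1118), 2619 (867 to 4668) and 2373 (1520 to 3703) at 1 µM by time. The cause of these differences was not tested. Elovl5 exceeded the floor of 5 in 82 of 100 arrays and the other 5 genes in all 100.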

Other observations

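By time at 1 µM, the numbers called higher among 14 lipogenic genes were 0, 3, 4, 6 and 8 at 2, 6, 12, 24 and 72 h, and 1 was called lower, at 24 h. At 72 h Me1 rose by 1.63, Thrsp by 1.17, Gpam by 1.12 and Srebf1 by 1.06 on the log2 scale, while Fasn changed by 0.47 (limma, adjusted p = 0.0650). Of 7 genes of activation and remodelling, 0, 3, 5, 4 and 4 were called higher, and 1 was called lower at 24 and at 72 h. Of 3 peroxisomal genes 1, 2, 2, 3 and 3 were called higher. The share of all genes called higher at these times was 0.351%, 1.73%, 3.96%, 7.06% and 11.3%.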
